A study of Mus musculus with 8 samples.

Results

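The protein components of the cytosolic ribosome were followed in the colon epithelium of wild type and PIM1+/- mice. They were taken by gene name, as Rpsa and every gene whose symbol is Rpl, Rps or Rplp followed by a number and at most the letter a, x or l, with named pseudogenes and the S6 kinases left out. This gave 83 of the 55487 genes in the table, and 78 of them were among the 12760 genes tested, those that reached 1 TPM in 4 or more libraries. TPM are transcript abundances divided by transcript length and scaled to a fixed sum in each library. Of the 5 members that were not tested, Rpl10l, Rpl39l and Rpl6l were listed at 0 in every library, Rpl3l reached at most 0.23 TPM and Rpl32l at most 1.5 TPM. The rule goes by symbol, so it kept Rpl6l and Rpl32l, annotated as processed pseudogenes. It also kept Rps4l, a transcribed processed pseudogene that was tested.

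The ribosome translates mRNA into protein, and its small subunit decodes the message while its large subunit joins the amino acids. Each subunit is built from ribosomal RNA and a fixed set of proteins, so their mRNAs are among the most abundant in dividing tissues such as the intestinal epithelium. In mammals these mRNAs begin with a tract of pyrimidines, through which growth signals control their translation, and their genes are a known output of MYC and growth factor signalling.

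RNA had been sequenced from intestinal epithelial cells of the colon in 4 libraries labelled wild type (WT) and 4 labelled PIM1+/-, all from C57BL/6J mice. Pim1 encodes a serine/threonine kinase, and in the usual notation PIM1+/- denotes mice that carry an altered copy beside a normal copy. The labels give neither the structure of that allele nor an age, sex, treatment or batch. They also do not say that each library came from its own mouse, so p-values measure only the spread between these libraries. Values of single libraries are given in the order of their replicate numbers. For Pim1 they were 8.79, 7.86, 5.72 and 8.83 TPM among WT and 7.97, 7.23, 5.64 and 5.84 TPM among PIM1+/- libraries, and the gene did not pass the test (log2 fold change -0.19 ± 0.15 SE, limma adjusted p = 0.411). The genotypes overlapped at this gene, and the level does not check the labels where the allele is not known.

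Epithelial genes were abundant in every library, and the read depth is unknown because TPM keep none. The 12 colon epithelial markers summed to 22240 to 27777 TPM in WT and 31141 to 37145 TPM in PIM1+/- libraries. The 15 T and NK cell markers summed to 14.0 to 28.7 TPM in WT and 49.7 to 118 TPM in PIM1+/-, and the 14 myeloid and mast cell markers to 2.35 to 5.78 and 16.3 to 19.8 TPM. B and plasma cell markers summed to 4.71 to 15.3 and 9.30 to 13.8 TPM, and fibroblast, muscle and endothelial markers to 4.10 to 5.49 and 3.06 to 4.51 TPM, with 10 of these 14 under 1 TPM everywhere. Of 22 type I interferon-stimulated genes 22 rose (median log2 fold change 2.70), and 4 of 6 tested posterior Hox genes fell (median -0.75, summed level 179 to 232 TPM in WT and 55.3 to 123 TPM in PIM1+/-). The part of these differences in any result below was not tested. In a bulk sample, fewer cells of a type and less RNA per cell cannot be told apart.

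Most ribosomal protein mRNAs had a lower mean in the PIM1+/- libraries, by a small amount, and most did not pass the test gene by gene. Their summed level was 93024, 90531, 94326 and 87966 TPM across the WT libraries and 81807, 84248, 86217 and 90061 TPM across the PIM1+/- libraries. The mean sum was 91462 ± 2812 TPM in WT and 85583 ± 3488 TPM in PIM1+/- (SD, n = 4 each), a difference of -6.43% that has no test. The genotypes overlapped in this sum, since PIM1+/- replicate 4 lay above WT replicate 4. As a share of all listed TPM the members made up 9.22% ± 0.29 in WT and 8.63% ± 0.35 in PIM1+/- (SD, n = 4 each).

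Gene by gene, 12 members passed the test as lower in PIM1+/- (limma on log2(TPM + 1), Benjamini-Hochberg adjusted over all 12760 genes, threshold 0.05) and 0 as higher. These 12 were 15.4% of the 78 tested, where 8.54% of all tested genes were called lower and 8.93% higher. Of the 78 log2 fold changes 69 lay below zero (88.5%, against 52.0% of all genes), with a median of -0.10 for the members and -0.01 for all genes. Members come from the same 8 libraries and tended to shift together within a library, so these counts are a description and not separate results. The log2 fold changes of the members had an SD of 0.098 and extremes of -0.38 for Rpl9 and 0.20 for Rps27l. The middle of all genes spanned -0.17 to 0.15 between its quartiles. That is a different measure, over genes that include much lower levels, so the spreads are not compared. In 19 members every PIM1+/- library lay below every WT library and in 0 the reverse, which held for 11.6% and 11.9% of all tested genes. Among members with copies at other loci, described further on, the level is an estimate that the quantification divides between loci.

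**Figure D1:**
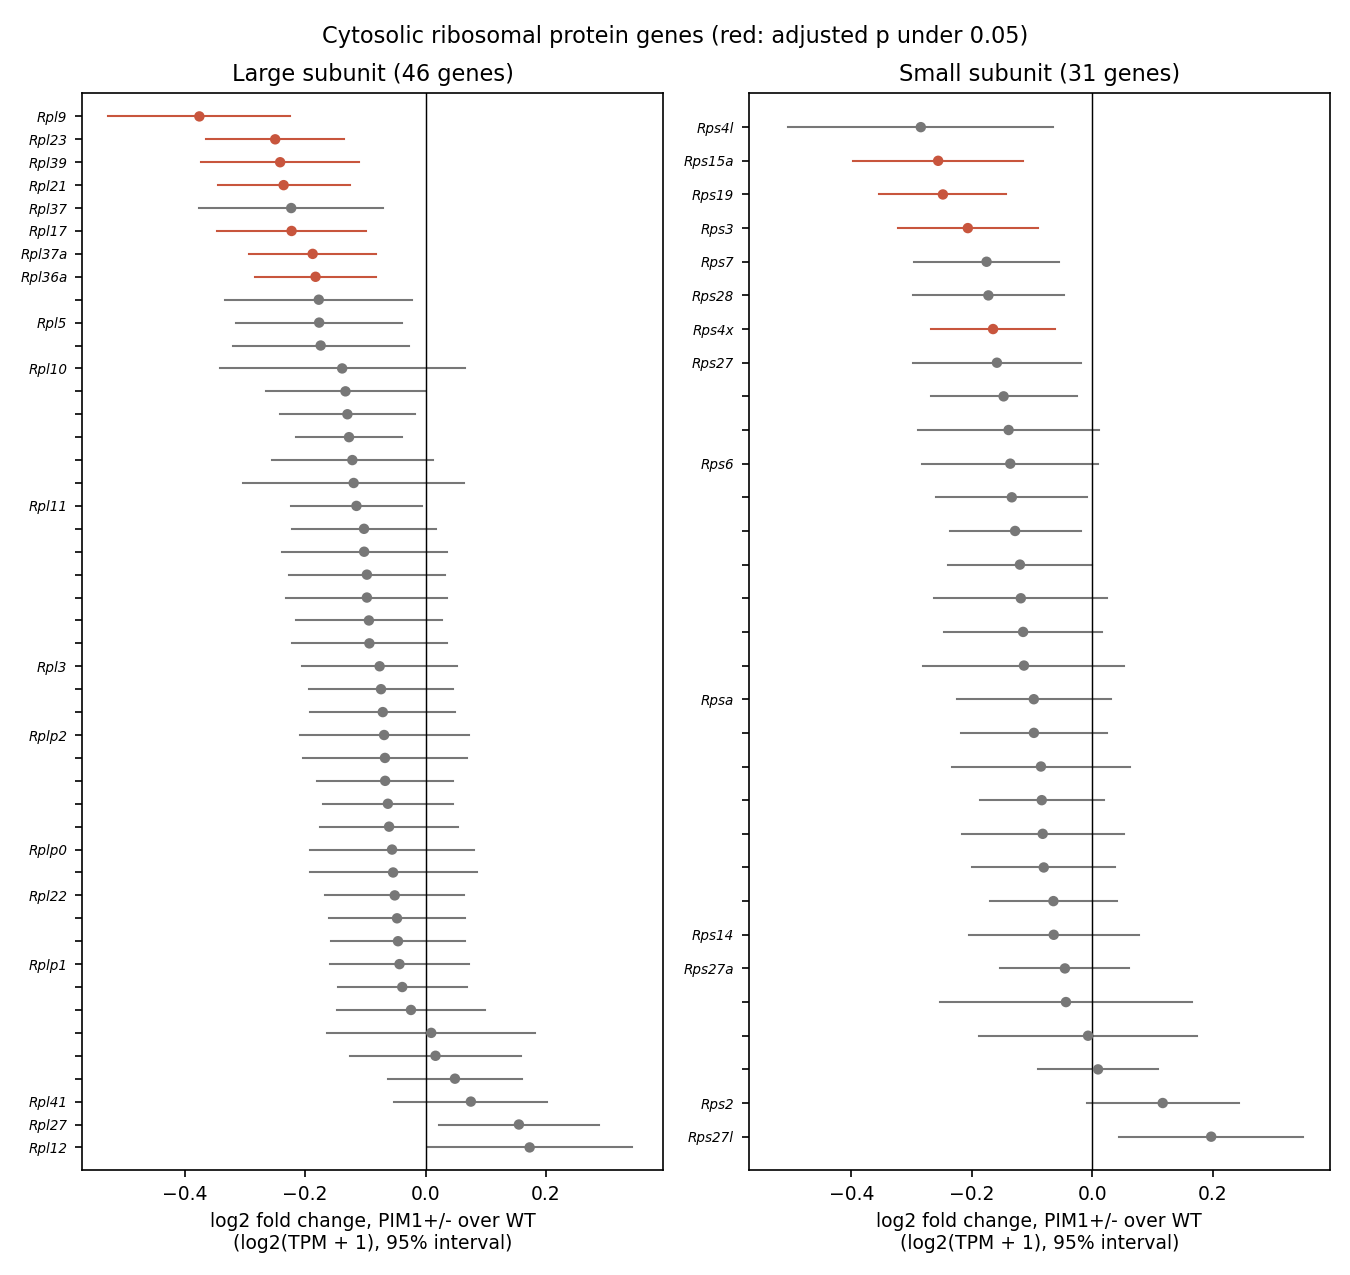
Log2 fold change of PIM1+/- over WT on the log2(TPM + 1) scale (x axis) for 46 large subunit and 31 small subunit genes, with 95% intervals from limma, 11 genes past the threshold in red and names on the genes described in the text. The points lie mostly left of zero, from -0.38 for Rpl9 to 0.20 for Rps27l.

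The 12 called members came from both subunits, 7 of 46 from the large and 5 of 32 from the small subunit. The medians were -0.09 and -0.12, and the sums differed by -5.62% for the large and by -7.42% for the small subunit. The large subunit sum stood at 1.223 ± 0.011 times the small subunit sum in WT and at 1.246 ± 0.005 times in PIM1+/- (SD, n = 4 each), with WT replicate 2 at 1.238 and the lowest PIM1+/- library at 1.242. The ratio thus did not overlap between the genotypes, and it was not tested. Its sums hold the named genes alone, so it also rests on the naming rule and on how reads are divided between copies. The ratio with copies summed is not given.

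Sequences around the RefSeq starts of 6 members are shown so that called genes can be set beside genes above zero. Each is the stretch from 100 bases before to 20 bases after the start annotated in RefSeq, on the strand of the gene, on GRCm38.p6. That start can differ from the gene bounds of GENCODE M21, which are the bounds given for genes below. The windows of Rps19 and Rps2 lie inside those bounds, and that of Rpl27 ends before them. Capitals mark matches on either strand to CTCTTT, a pyrimidine run, to CCGGAAG, the core bound by ETS factors such as GABP, to AANATGGC, the YY1 motif, or to GGGCGG, the Sp1 motif. The reverse complement of a motif stands in the sequence where the match is on the other strand. The first 3 belong to the members with the smallest adjusted p, which are not those with the largest changes, since Rps15a (-0.26) lay beyond Rpl23 and Rps19 (-0.25 each). The last 3 belong to members with positive log2 fold changes that did not pass, of which Rpl27 and Rps2 were picked after their values were seen. Rpl12, which lay above both at 0.17, is described with its copy further on.
Rpl9, chr5:65391412-65391531, minus strand: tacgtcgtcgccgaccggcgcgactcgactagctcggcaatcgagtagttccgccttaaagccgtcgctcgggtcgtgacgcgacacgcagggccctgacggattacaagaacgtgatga
Rps19, chr7:24884492-24884611, plus strand: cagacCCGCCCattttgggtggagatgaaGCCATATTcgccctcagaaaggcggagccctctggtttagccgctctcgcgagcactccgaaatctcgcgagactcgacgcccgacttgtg
Rpl23, chr11:97782420-97782539, minus strand: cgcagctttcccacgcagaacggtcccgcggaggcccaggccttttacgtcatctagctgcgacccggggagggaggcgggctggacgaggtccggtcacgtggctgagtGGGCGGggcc
Rps27l, chr9:66945986-66946105, plus strand: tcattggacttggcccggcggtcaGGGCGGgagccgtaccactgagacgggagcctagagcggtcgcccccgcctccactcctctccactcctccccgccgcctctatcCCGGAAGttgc
Rpl27, chr11:101442145-101442264, plus strand: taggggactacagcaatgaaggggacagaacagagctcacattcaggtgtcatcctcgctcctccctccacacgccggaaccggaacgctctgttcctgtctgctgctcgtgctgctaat
Rps2, chr17:24719963-24720082, plus strand: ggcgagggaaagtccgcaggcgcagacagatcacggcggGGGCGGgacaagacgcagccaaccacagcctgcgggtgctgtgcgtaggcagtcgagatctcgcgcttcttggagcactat

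In the longer RefSeq windows of 300 bases, 57 of the tested members had an entry, beside 27025 promoters in all. The ETS motif stood in 40.4% of the members' windows and 9.12% of all windows, the pyrimidine run in 45.6% and 22.9%, the Sp1 motif in 59.6% and 35.9%, and the YY1 motif in 17.5% and 6.23%. Matches count on either strand and anywhere in the window. The run counted here is therefore not a measure of the pyrimidine tract at the start of the mRNA. Of the 9 called members with a window 1 held the ETS motif, and of the 48 that were not called 22 did, a contrast noticed in the data and given with no test. The pyrimidine run was held by 4 of the 9 and 22 of the 48, the Sp1 motif by 6 and 28, and the YY1 motif by 2 and 8.

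In the large subunit, Rpl9 had the largest difference of any member. Its protein (uL6) lies near the sarcin-ricin loop, where translation factors bind, and its gene is at chr5:65388364-65391444 on the minus strand (GRCm38, ENSMUSG00000047215). Its level was 1471, 1389, 1517 and 1372 TPM in WT and 992, 1090, 1147 and 1208 TPM in PIM1+/-. Every PIM1+/- library lay below every WT library, with means of 1437 ± 68.8 and 1109 ± 91.6 TPM (SD, n = 4 each). Rpl9 fell by 0.38 ± 0.067 SE on the log2 scale (limma adjusted p = 0.0063) and was past the threshold in each of the 18 alternatives run.

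Rpl23 (uL14, chr11:97777527-97782437, minus strand), which sits at the face that meets the small subunit and whose protein can bind Mdm2, was at 717, 759, 786 and 699 TPM in WT and 615, 614, 609 and 650 TPM in PIM1+/-. The genotypes did not overlap, and 3 of the PIM1+/- libraries lay between 609 and 615 TPM. Rpl23 fell by 0.25 ± 0.051 SE on the log2 scale (limma adjusted p = 0.0107).

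Rpl39 (eL39, chrX:37082520-37085402, minus strand), a short protein that lines the exit tunnel for the growing chain, was at 448, 518, 463 and 439 TPM in WT and 395, 388, 385 and 409 TPM in PIM1+/-. Rpl21 (eL21, chr5:146832890-146837032, plus strand) was at 527, 548, 585 and 564 TPM in WT and 487, 450, 482 and 469 TPM in PIM1+/-. Neither gene overlapped between genotypes. Rpl39 fell by 0.24 ± 0.058 SE (limma adjusted p = 0.0217) and Rpl21 by 0.24 ± 0.049 SE (adjusted p = 0.0116) on the log2 scale. With near-identical copies summed in, Rpl21 was at -0.07 ± 0.11 SE (adjusted p = 0.724) and Rpl39 at -0.25 ± 0.076 SE (adjusted p = 0.0514), and neither passed.

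Rpl17, Rpl37a and Rpl36a complete the called large subunit genes. Rpl17 (uL22), another protein of the exit tunnel wall, fell from 1195 ± 38.7 to 1025 ± 63.1 TPM (SD, n = 4 each), a log2 change of -0.22 ± 0.055 SE (limma adjusted p = 0.0244). Rpl37a, a zinc-binding protein of the large subunit, fell from 814 ± 22.2 to 715 ± 30.6 TPM (log2 -0.19 ± 0.047 SE, adjusted p = 0.0252). Rpl36a (eL42), which lies at the site from which spent tRNA leaves, fell from 794 ± 31.5 to 700 ± 14.6 TPM (log2 -0.18 ± 0.044 SE, adjusted p = 0.0227). In all 3 genes the genotypes were apart. Their calls were not stable, since Rpl37a lost its call in 9, Rpl17 in 7 and Rpl36a in 6 of the 18 alternatives, among them the sum with copies for Rpl36a (adjusted p = 0.0661).

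**Figure D2:**
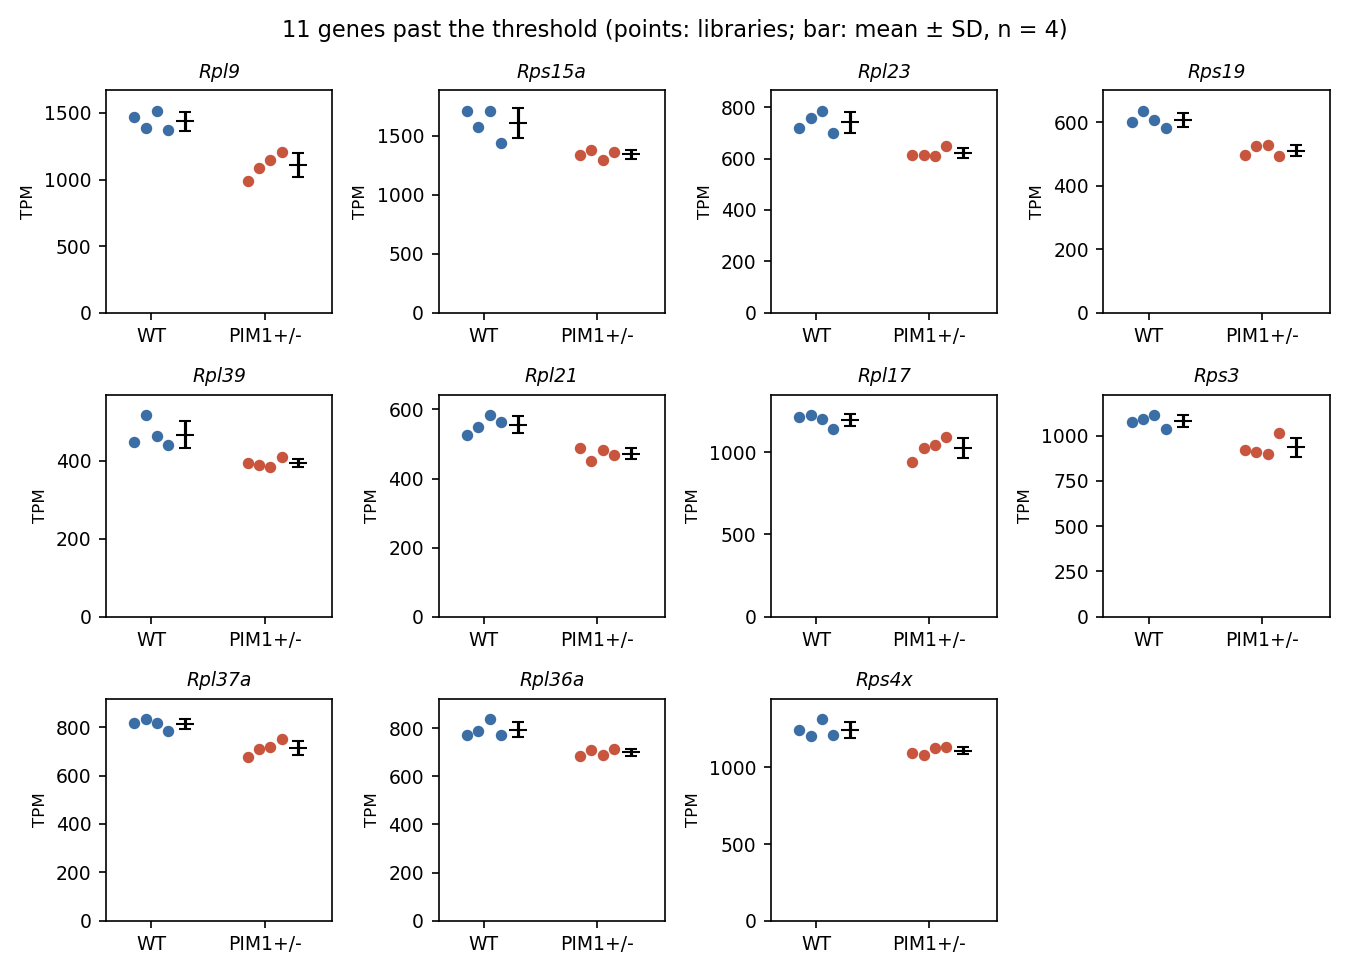
Level in TPM (y axis, from 0) of 11 members past the threshold in each WT and PIM1+/- library, as points in replicate order with the mean and SD (n = 4) as bars. In every panel the PIM1+/- points lie below the WT points.

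In the small subunit, Rps19 (chr7:24884371-24889806, plus strand, ENSMUSG00000040952) had the smallest adjusted p. Its protein is needed to mature the small subunit RNA, mutations of the human gene cause Diamond-Blackfan anaemia, and the human protein is known to bind PIM1 kinase. Rps19 was at 602, 637, 608 and 581 TPM in WT and 497, 524, 529 and 495 TPM in PIM1+/-, without overlap. It fell by 0.25 ± 0.047 SE on the log2 scale (limma adjusted p = 0.00803) and, like Rpl9, was past the threshold in all 18 alternatives.

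Rps15a (uS8, chr7:118104372-118116188, minus strand) was at 1710, 1570, 1712 and 1439 TPM in WT and 1335, 1381, 1294 and 1363 TPM in PIM1+/-. WT replicate 4 was the lowest WT library and still lay above every PIM1+/- library. Rps15a fell by 0.26 ± 0.063 SE on the log2 scale (limma adjusted p = 0.0239) and lost its call in 6 of the 18 alternatives.

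Rps3 and Rps4x were also called lower. Rps3, which forms part of the entry channel for mRNA, fell from 1079 ± 32.8 to 936 ± 52.4 TPM (log2 -0.21 ± 0.052 SE, limma adjusted p = 0.0254). Rps4x, the X-linked gene of protein eS4, fell from 1244 ± 52.7 to 1109 ± 24.4 TPM (log2 -0.16 ± 0.046 SE, adjusted p = 0.0381; SD, n = 4 each throughout). The genotypes overlapped in neither gene, and Rps4x and Rps3 lost their calls in 10 and 9 of the 18 alternatives.

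Members in other roles had smaller or less certain differences. The stalk proteins Rplp0, Rplp1 and Rplp2, which recruit the elongation factors, were at log2 fold changes of -0.06, -0.04 and -0.07 (limma adjusted p = 0.569, 0.608 and 0.486), and their genotypes overlapped. Rpl5 and Rpl11, which hold the 5S RNA and bind Mdm2 when ribosome assembly fails, were at -0.18 ± 0.061 SE and -0.11 ± 0.048 SE (adjusted p = 0.0765 and 0.136). In these last genes the genotypes did not overlap, and the p-values still missed the threshold. Rpl5 as named held only 5.83% of the TPM summed with its copies, and that sum was called lower, as described further on.

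Rps6, the substrate of the S6 kinases, was at 1203 ± 103 TPM in WT and 1092 ± 38.0 TPM in PIM1+/- (log2 -0.14 ± 0.065 SE, adjusted p = 0.184). Rpsa, also known as the laminin receptor precursor, was at -0.10 (adjusted p = 0.271), and Rps14, whose human gene lies in the region lost in 5q- syndrome, was at -0.06 (adjusted p = 0.524). Rpl3, which reaches the peptidyl transferase centre, was at -0.08 (adjusted p = 0.395), and Rps27a, made as a fusion with ubiquitin, at -0.05 (adjusted p = 0.556). None of these passed, and each overlapped between genotypes.

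The X chromosome holds 4 members, Rpl10, Rpl36a, Rpl39 and Rps4x, and 3 of them were called lower, where 8.54% of all tested genes and 15.4% of the tested members were. The share among all X-linked genes is not given, and the labels do not give the sex of the mice. With copies summed in, Rps4x alone of the 4 was called (limma adjusted p = 0.0369). Rpl10, which completes the large subunit late in assembly, was at 705, 512, 615 and 650 TPM in WT and 597, 557, 539 and 548 TPM in PIM1+/-. Its WT libraries spread around the PIM1+/- values, and it did not pass (log2 -0.14 ± 0.09 SE, limma adjusted p = 0.325).

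The most abundant members, per length, were Rps27 at 3436 TPM, Rplp1 at 2887 TPM and Rpl41 at 2629 TPM over the 8 libraries. The lowest 3 tested were Rpl12 at 36.3 TPM, Rps4l at 40.7 TPM and Rpl5 at 59.4 TPM. Across the 78 members the mean log2 level and the log2 fold change had a Pearson r of -0.00 and a Spearman rho of 0.12, given as a description of genes measured in the same libraries. Rpl41, the shortest ribosomal protein, was at 2561 ± 149 TPM in WT and 2696 ± 106 TPM in PIM1+/- (log2 0.08 ± 0.056 SE, adjusted p = 0.396), and its sign turned in the scaling without mitochondrial rows and nuclear copies that is described further on (-0.03).

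No member passed as higher, and 9 had log2 fold changes above zero. At an unadjusted limma p under 0.05, 3 of the 78 members were higher (Rps27l, Rpl27 and Rpl12) and 28 lower. At that p 16.3% of all genes were higher and 16.1% lower. Rps27l, a paralog of Rps27 that is a p53 target in human cells, had the highest value of the members. It was at 327, 309, 333 and 292 TPM in WT and 382, 329, 347 and 390 TPM in PIM1+/- (log2 0.20 ± 0.068 SE, limma adjusted p = 0.0758). PIM1+/- replicate 2 lay below WT replicate 3, so the genotypes overlapped. Rpl27 and Rps2, chosen after their values were seen, were at 0.16 ± 0.059 SE (adjusted p = 0.102) and 0.12 ± 0.056 SE (adjusted p = 0.183).

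Several members have a paralog that codes for a closely related protein, which allows the balance of a pair to be compared within a library. The first 120 coding bases of the pairs with the largest differences are shown, from GENCODE M21 on GRCm38, with the bases that differ within a pair in capitals.
Rps27, chr3:90212522-90213651, minus strand: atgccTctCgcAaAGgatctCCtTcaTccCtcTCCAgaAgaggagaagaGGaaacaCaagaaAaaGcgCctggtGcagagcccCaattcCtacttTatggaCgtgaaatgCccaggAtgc
Rps27l, chr9:66946086-66949516, plus strand: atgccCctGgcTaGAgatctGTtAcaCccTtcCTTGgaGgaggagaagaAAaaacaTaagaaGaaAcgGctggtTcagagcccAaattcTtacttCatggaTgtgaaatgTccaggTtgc
Rpl36a, chrX:134585654-134588062, plus strand: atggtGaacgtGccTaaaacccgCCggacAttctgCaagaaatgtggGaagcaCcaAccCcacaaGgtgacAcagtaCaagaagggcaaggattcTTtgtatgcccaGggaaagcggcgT
Rpl36al, chr12:69182731-69184083, minus strand: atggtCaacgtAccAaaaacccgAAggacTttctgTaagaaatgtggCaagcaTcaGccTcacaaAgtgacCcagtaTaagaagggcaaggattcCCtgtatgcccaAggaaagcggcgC
The coding sequences of Rps27 and Rps27l share 76.2% of 252 bases and those of Rpl36a and Rpl36al 87.7% of 318 bases, so reads of the partners can be told apart at many positions.

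Rps27 itself was at 3708, 3440, 3566 and 3775 TPM in WT and 3033, 3142, 3250 and 3576 TPM in PIM1+/-, with an overlap and no call (log2 -0.16 ± 0.062 SE, limma adjusted p = 0.113). The log2 ratio of Rps27l to Rps27 was -3.50, -3.47, -3.42 and -3.69 in WT and -2.99, -3.25, -3.23 and -3.19 in PIM1+/-. Every PIM1+/- library had a higher ratio than every WT library, and the mean difference was 0.36 (two-sided exact permutation test p = 0.0286, the smallest this design allows, and 0.0714 after Benjamini-Hochberg adjustment over 5 pairs). The adjusted value missed the threshold.

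Rpl36al was at 496, 545, 504 and 479 TPM in WT and 649, 535, 538 and 536 TPM in PIM1+/- (log2 0.16 ± 0.073 SE, limma adjusted p = 0.177). The log2 ratio of Rpl36al to Rpl36a was -0.64, -0.54, -0.74 and -0.69 in WT and -0.08, -0.41, -0.35 and -0.41 in PIM1+/-, again without overlap. The difference was 0.34, with the same exact permutation p of 0.0286 and adjusted p of 0.0714 over the 5 pairs. PIM1+/- replicate 1 had the highest ratio, and without it the difference was 0.26. Rpl36a held 39.8% of the TPM summed with its near-identical copies, beside Rpl36a-ps2 at a mean of 1127 TPM. Its level in this ratio therefore rests in part on the division between loci, and the ratio with copies summed is not given.

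Rpl3l, Rpl10l and Rpl39l were too low to set against their partners. For Rpl7l1 over Rpl7 the log2 ratio differed by 0.26 (exact permutation p = 0.0857, adjusted 0.143), for Rps4l over Rps4x by -0.12 (p = 0.286, adjusted 0.357) and for Rpl22l1 over Rpl22 by 0.03 (p = 0.743, adjusted 0.743). Rps4l is annotated as a transcribed processed pseudogene and was at 44.8 ± 5.34 TPM in WT and 36.6 ± 3.66 TPM in PIM1+/- (log2 -0.28 ± 0.098 SE, limma adjusted p = 0.0759). Rpl22, which mice can lack with a defect mainly in T cells, was at 651 ± 23.7 and 629 ± 33.1 TPM (SD, n = 4 each).

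Ribosomal protein genes have many processed copies in the mouse genome, and these bear on what a level means here. A search of annotated transcripts found 1083 copies of 77 members at 90% identity or more, and 576 of these copies had no TPM in any library while 87 reached a mean of 1 TPM. A further step up, 24 copies reached 100 TPM, and 20 of these were identical to the member over the aligned stretch. In 22 of the tested members the named gene held under 90% of the TPM summed over itself and its copies, and in 14 under 50%. Reads from identical stretches cannot be assigned to a locus, so how a pair's TPM is divided was set by the quantification.

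Rpl12, a protein at the base of the stalk, shows the split most plainly. Its whole coding sequence of 495 bases is repeated without a difference in Gm10275, a processed copy on another chromosome, and the first 60 bases of both read as follows.
Rpl12, chr2:32961559-32965345, plus strand, and Gm10275, chr10:29698746-29699380, minus strand: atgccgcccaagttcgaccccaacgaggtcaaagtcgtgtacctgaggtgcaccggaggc
Rpl12 was at 35.0, 33.5, 37.2 and 30.8 TPM in WT and 39.0, 40.0, 40.5 and 34.8 TPM in PIM1+/- (log2 0.17 ± 0.075 SE, limma adjusted p = 0.146). Gm10275 was at 1473, 1330, 1492 and 1320 TPM in WT and 1288, 1281, 1326 and 1436 TPM in PIM1+/-. The named gene thus held 2.58% of the sum, and the sum of gene and copies had a log2 fold change of -0.07, the opposite sign.

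Rpl5 held 5.83% of its sum beside Gm15500, Rpl27a 10.9% beside Gm7536, Rps23 23.8% beside Rps23-ps1 and Rpl10 33.4% beside Rpl10-ps3. With copies summed in, the levels of the 77 members other than Rps4l ranged from 344 to 3575 TPM, a 10.4-fold range in place of the 94.6-fold range of the named genes alone. The SD of their log2 levels was 0.72 in place of 1.12. The order by level of those 22 members therefore rests in part on the division between copies, while in the other 56 the copies held at most 10% of the sum.

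**Figure D3:**
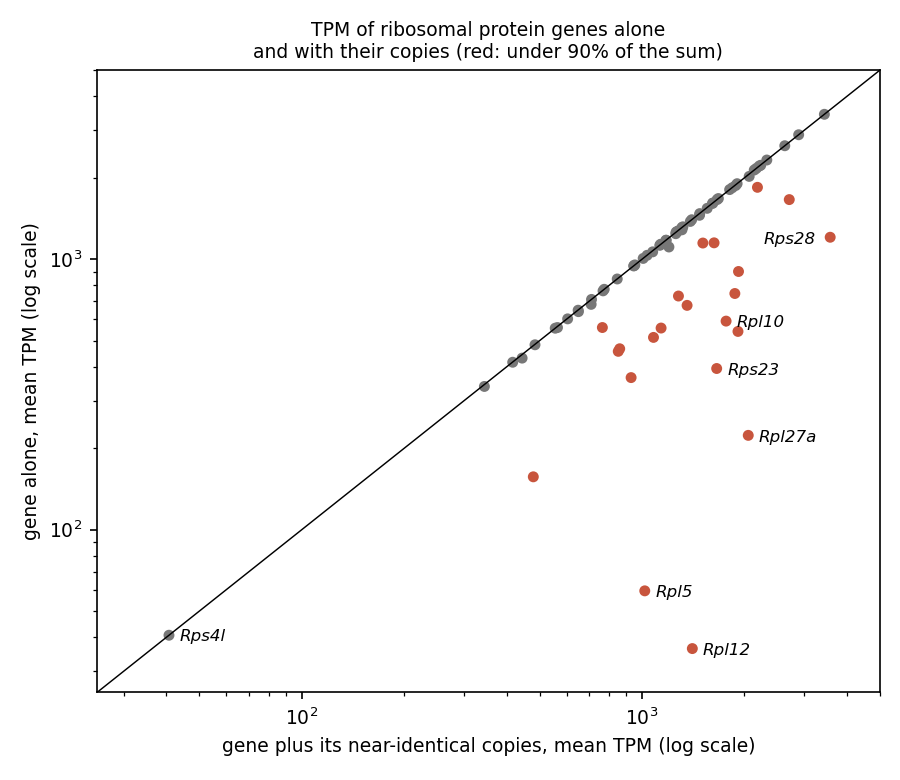
Mean TPM over the 8 libraries of each tested member alone (y axis, log scale) against the member plus its near-identical copies (x axis, log scale), with the diagonal of equal values and, in red, the 22 genes under 90% of the sum. Rpl12 and Rpl5 lie farthest below the diagonal, at 2.58% and 5.83% of their sums.

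With every member summed with its copies before the fit, 13 members were called lower and 1 higher, against 8.64% and 9.07% of all genes in that fit. Of the 12 first calls 9 were shared, and Rpl21, Rpl36a and Rpl39 were lost. Rpl5, Rpl37, Rps7 and Rps28 were called lower in the sums, and Rpl5 with its copies stood at 1109, 1054, 1186 and 1066 TPM in WT and 924, 917, 936 and 963 TPM in PIM1+/-, without overlap (log2 -0.24 ± 0.049 SE, limma adjusted p = 0.0116). Rpl37, with its copy Rpl37rt, was at -0.27 ± 0.063 SE (adjusted p = 0.0183).

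Rpl27 with its copies was the single sum called higher. It was at 1206, 1147, 1231 and 1143 TPM in WT and 1387, 1365, 1369 and 1390 TPM in PIM1+/-, with no overlap (log2 0.22 ± 0.043 SE, limma adjusted p = 0.00853). Its copies Rpl27-ps3 and Gm11518 had identical TPM in each library. The call did not hold when the sums were also rescaled without mitochondrial transcripts and their nuclear copies (0.11 ± 0.042 SE, adjusted p = 0.0797).

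The libraries of a genotype did not behave alike. The median deviation of the 78 members from their own means was 0.064, 0.034, 0.097 and -0.002 on the log2 scale for the WT libraries and -0.102, -0.080, -0.051 and 0.030 for the PIM1+/- libraries. WT replicate 3 was the highest of the 8 libraries for 37 members, and PIM1+/- replicate 1 was the lowest for 37. In PIM1+/- replicate 4, 51 members lay above their own mean, against 10, 6 and 19 in the other PIM1+/- libraries, and in WT replicate 4 35 did.

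**Figure D4:**
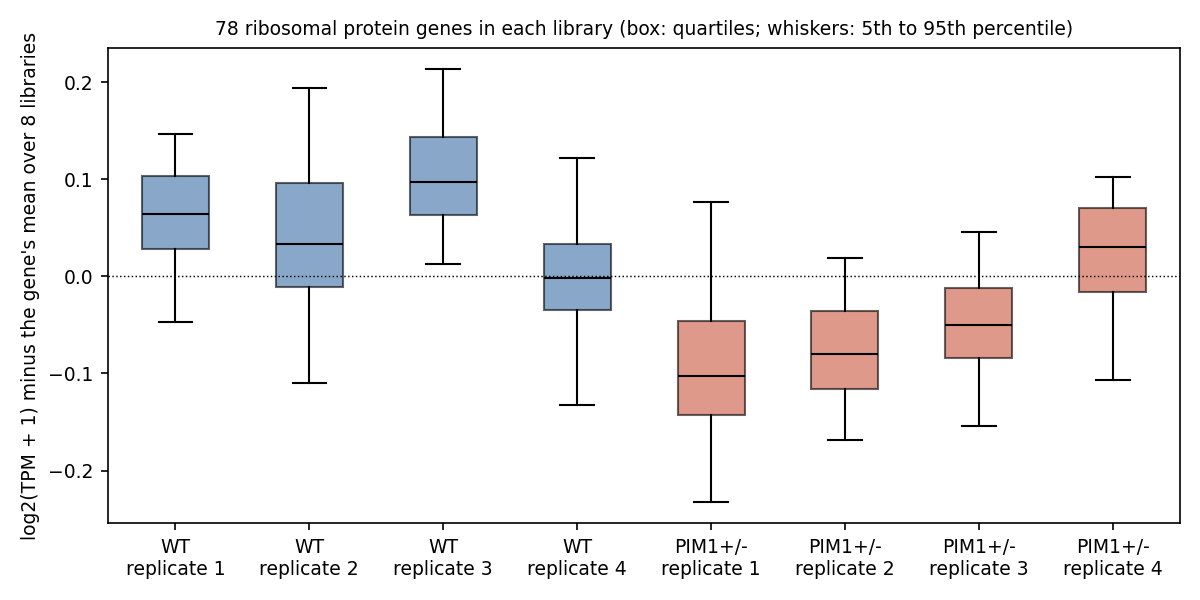
Deviation of the 78 tested members from their own mean log2(TPM + 1) over the 8 libraries (y axis), as boxes of the quartiles with whiskers from the 5th to the 95th percentile, for each WT and PIM1+/- library. The median of PIM1+/- replicate 4 is at 0.030, above that of WT replicate 4 at -0.002.

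Leaving out a library moved the count of calls. Without PIM1+/- replicate 4, 15 members were called lower, against 7.81% of all genes. The count was 5 when WT replicate 3 was left out (5.41% of all genes) and 6 when WT replicate 1 was (4.83%). PIM1+/- replicates 2 and 3, each left out, gave 6 calls (5.85% and 6.36%) and PIM1+/- replicate 1 gave 8 (6.11%). WT replicates 2 and 4, each left out, gave 10 (8.26%) and 11 (5.40%). The median log2 fold change of the members stayed between -0.08 and -0.13 in these fits. Limma without its mean-variance trend called 6 (7.69% of members, 8.10% of all genes). No filter on low values called 4 of 80 (5% of members, 2.49% of all genes), and a replicate block 3 (3.85% of members, 5.40% of all genes). Without the trend and with the block, the members' share thus lay below that of all genes.

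Mitochondrially encoded transcripts took a smaller share in PIM1+/- libraries, which bears on every other value because TPM share a fixed sum. They made up 16.92% ± 1.01 of the listed TPM in WT and 13.35% ± 0.56 in PIM1+/- (SD, n = 4 each), and with 16 nuclear copies of mitochondrial genes 28.05% ± 1.56 and 22.42% ± 1.11. Of 10 tested mitochondrial mRNAs 8 fell (median log2 fold change -0.40). Values were therefore also rescaled without these rows.

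Under each such scaling the members lay further down, as did all genes. With the upper quartile as the scale the median was -0.14 for members and -0.05 for all genes, and 24 members were called lower (11.9% of all genes). Without mitochondrial rows the medians were -0.16 and -0.07, with 28 members called lower (12% of all genes). Without the nuclear copies as well they were -0.21 and -0.11, with 52 of 78 members called lower (66.7%, against 16.8% of all genes) and 0 higher. All 12 first calls were shared by each of these scalings, and the distance of the members' median from that of all genes was -0.09 in each.

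In the last scaling the members made up 12.82% ± 0.26 of the remaining TPM in WT and 11.13% ± 0.53 in PIM1+/- (SD, n = 4 each), a difference of -13.19%. The values were 12.88%, 12.53%, 13.14% and 12.73% in WT and 10.43%, 11.11%, 11.27% and 11.71% in PIM1+/-, so on this scale the genotypes no longer overlapped. Rpl9 stood at -0.48 ± 0.07 SE (limma adjusted p = 0.00234) and Rps19 at -0.36 ± 0.047 SE (adjusted p = 0.00155). Rps27l, Rpl27, Rps2 and Rpl12 remained above zero without passing, at 0.09, 0.05, 0.01 and 0.07, the last with a sign that its copies reverse. With copies summed in and this scaling together, 55 members were called lower (16.9% of all genes).

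**Figure D5:**
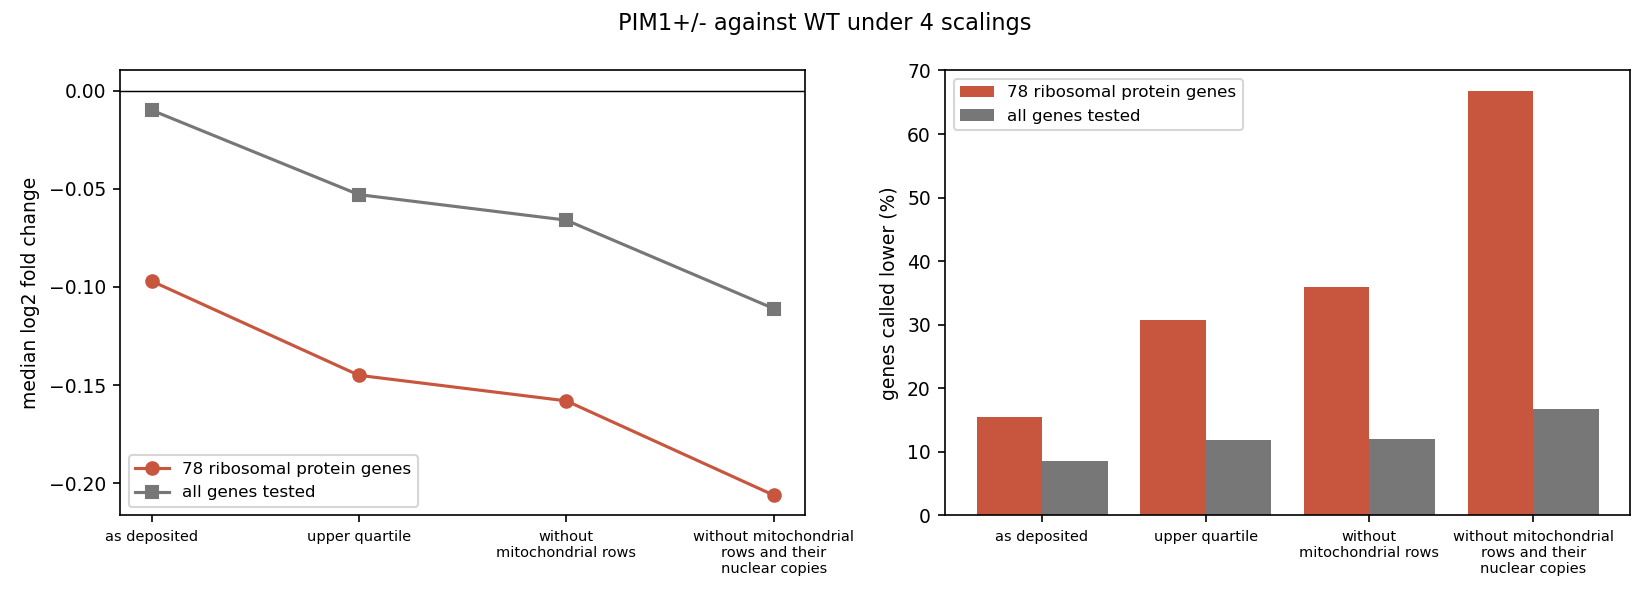
Median log2 fold change of PIM1+/- over WT (left, y axis) and share of genes called lower in percent (right, y axis from 0) for the 78 members and for all tested genes, under the deposited TPM and 3 other scalings (x axis). The median moves from -0.10 to -0.21 for members and from -0.01 to -0.11 for all genes, and the share called lower from 15.4% to 66.7% and from 8.54% to 16.8%.

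Other parts of the translation machinery were read from the same fit, from lists made by function, whose counts stand beside 8.93% of all tested genes called higher and 8.54% lower. Counts from the scaling without mitochondrial rows and nuclear copies stand beside 16.8% of all genes called lower there. Among 7 cytosolic ribosomal genes that the naming rule leaves out, 1 fell and 0 rose, with a median of -0.02 that was -0.13 without mitochondrial rows and nuclear copies. Rps3a1, a small subunit protein, was at 1197, 1146, 1254 and 1076 TPM in WT and 983, 1016, 1025 and 1052 TPM in PIM1+/-, without overlap (log2 -0.20 ± 0.06 SE, limma adjusted p = 0.0394). Fau, which encodes a ribosomal protein fused to a ubiquitin-like protein, was at 0.01, and Rack1, a scaffold on the small subunit, at -0.07, and neither passed (adjusted p = 0.942 and 0.422).

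The 78 proteins of the mitochondrial ribosome, which are nuclear encoded and translate mitochondrial mRNAs, had a median of 0.13, with 11 called higher and 1 lower. Without mitochondrial rows and nuclear copies the median was 0.02 and the calls 3 and 2. Mrps28 rose by 0.35 ± 0.08 SE on the log2 scale (limma adjusted p = 0.0148), and Mrps6 fell from 137 ± 15.6 to 88.0 ± 3.45 TPM (log2 -0.63 ± 0.08 SE, adjusted p = 0.00144). Both kept their calls in the scaling without mitochondrial rows and nuclear copies.

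Non-ribosomal mRNAs that also begin with the pyrimidine tract had a median of -0.11, near that of the members, with 5 of 17 called lower and 0 higher (10 and 0 without mitochondrial rows and nuclear copies). Eif3f, a subunit of the initiation factor that binds the small subunit, was at 99.2, 100.1, 106 and 108 TPM in WT and 54.8, 60.1, 62.8 and 70.3 TPM in PIM1+/-. It fell by 0.73 ± 0.08 SE on the log2 scale (limma adjusted p = 0.000407). Eef1b2, an exchange factor for the elongation factor that delivers tRNA, fell by 0.28 ± 0.06 SE (adjusted p = 0.0143), and its genotypes did not overlap either.

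Among 32 initiation factors 5 rose and 5 fell (median 0.03). Without mitochondrial rows and nuclear copies 0 rose and 9 fell, where 16.8% of all genes were called lower. Eif4g2, which drives cap-independent initiation, fell by 0.26 ± 0.05 SE (limma adjusted p = 0.0105). Of 10 elongation and termination factors 2 fell and 0 rose, the other beside Eef1b2 being Eef2k, the kinase that slows elongation (log2 -0.39 ± 0.12 SE, adjusted p = 0.049).

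Ribosome assembly factors had a median of 0.09, with 4 of 66 called higher (6.06%, below the 8.93% of all genes) and 0 lower. At an unadjusted limma p under 0.05 there were 11 higher and 1 lower, where 16.3% of all genes were higher and 16.1% lower. In the scaling without mitochondrial rows and nuclear copies the calls were 2 higher and 4 lower of 66 and the median -0.01. In that scaling 16.8% of all genes were called lower. Noc4l, a factor of small subunit assembly, rose by 0.38 ± 0.08 SE (limma adjusted p = 0.0111), and Eif6, which keeps the subunits apart until the large subunit is mature, by 0.30 ± 0.07 SE (adjusted p = 0.0227), a call that was lost in that scaling (adjusted p = 0.0656). RNA polymerase I, which makes ribosomal RNA, had 0 of 20 genes called with limma in either direction and a median of 0.05 (at an unadjusted p under 0.05, 0 higher and 2 lower), and with the scaling without mitochondrial rows and nuclear copies 0 higher and 2 lower (median -0.05).

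Regulators of MYC and mTORC1 signalling had a median of -0.12, with 4 of 30 called lower and 0 higher. Of these calls 1 was Mycn, which reached 1 TPM in WT libraries only (1.33 to 2.18 TPM, against 0.38 to 0.62 TPM in PIM1+/-), so the filter favoured its fall and its test is not given. Without Mycn 3 of 29 were called lower, and the median was -0.07. In the scaling without mitochondrial rows and nuclear copies, with Mycn, 10 of 31 were called lower (16.8% of all genes) and the median was -0.28. This count and median also include a gene that did not reach the filter in the main fit. Values without that gene and Mycn are not given, so nothing is drawn from them. Pdcd4, an inhibitor of the helicase eIF4A, fell by 0.81 ± 0.16 SE on the log2 scale (limma adjusted p = 0.00957). Of 13 tested p53 targets linked to ribosome stress 2 fell and 0 rose, with a median of 0.03 that was -0.08 without mitochondrial rows and nuclear copies. Gdf15, a secreted stress factor, fell by 0.63 ± 0.14 SE (adjusted p = 0.0142) and Zmat3 by 0.46 ± 0.11 SE (adjusted p = 0.0185). Of 11 ribosome quality control genes 1 was called, Edf1, a sensor of collided ribosomes, which rose by 0.24 ± 0.05 SE (adjusted p = 0.00767) and lost its call in the scaling without mitochondrial rows and nuclear copies (adjusted p = 0.0591).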

How the data were processed

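The authors deposited TPM per gene for 8 libraries in a single table, made with RSEM per the design text. HISAT2, StringTie, edgeR and the build GRCm38.p6 also stand in the submitters' processing notes, with no version or role. Depth, strand setting and annotation release: not given in the sources used here. All TPM of a library share a fixed sum, and reads of near-identical genes are divided by estimation.

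Log2(TPM + 1) was fitted with limma 3.58.1 in R 4.3.3 (genotype only, empirical Bayes with trend, two-sided) over the 12760 genes that reached 1 TPM in 4 or more libraries, with Benjamini-Hochberg adjustment. The script was checked on simulated data. Paralog ratios were compared by exact permutation (scipy 1.17.1). Copies were transcripts that matched a member over 80% or more of their length and 100 or more bases with an identity of 90% or more (BLAST+ 2.17.0), and nuclear mitochondrial copies were found likewise. Of the table's gene IDs 55141 were found in GENCODE M21. Motifs were searched in RefSeq promoters.

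Members and lists were chosen with earlier results of these data known. Named were the called members (a few are not reported here by name and count only in totals), members of set roles, the 3 highest and 3 lowest, Pim1, and up to 2 genes per list with the smallest p. Rpl27, Rps2, Rpl37, Rps7, Rps28, Rpl27a, Rps23, Rpl7, Fau, Rack1 and the copies were named after their values were seen. Alternatives were another variance model, scaling, filter, pseudocount, a replicate block and leaving out each library. Summing copies, and rescaling without nuclear mitochondrial copies, were added after the data were seen.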

Additional observations from a re-analysis of the deposited data

Results flagged for a closer look

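In the PIM1+/- group, Rpl23 was at 649.5 TPM in replicate 4 and at 615, 614 and 609 TPM in the other replicates, so that replicate 4 stood apart from the rest by more than Dixon's 95% critical value for 4 samples. Of the 70 groups looked at in this way 1 was singled out, and chance singles out about 1 in 20.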

How the results depend on the processing

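Across 18 alternatives the median of the members stayed below zero, and Rpl9 and Rps19 kept their calls in all of them. Rpl23 lost its call under the replicate block alone (adjusted p = 0.0514). The count called lower, 12 as reported, was 6 without the trend, 24 with the upper quartile, 28 without mitochondrial rows, 4 without a filter, 52 without mitochondrial rows and nuclear copies, 55 with copies summed as well, and 5 to 15 when each library was left out. The count called higher was 1 with copies summed. The median was -0.16 without mitochondrial rows, -0.21 without nuclear copies too, and -0.20 with copies summed as well, and the difference in summed TPM was -10.25% and -13.19% in the first and second of these (-5.05% to -8.06% without each library). Rpl12 turned to -0.07 with copies summed and -0.17 with that and the rescaling, and Rpl41 to -0.03 in both fits without nuclear copies. The Rpl22l1 ratio ranged from -0.03 (without WT replicate 3) to 0.10. The cause of these differences was not tested.

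The replicate number as a block called 3 members lower (Rps19, Rpl21 and Rpl9) and none of the 4 X-linked members (adjusted p of 0.0674 to 0.285). Deviations from the genotype means correlated at -0.136, 0.032, -0.033 and -0.071 between same-numbered libraries, and not every library correlated best with its own number. With 4 libraries per genotype these values cannot decide whether the numbers stand for a shared batch, and the labels do not say. TPM keep no depth, so counting error is unknown. The adjusted p of a paralog ratio cannot reach the threshold unless more pairs share the smallest p.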
